A study of Mus musculus with 6 samples.

Results

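The comparison described here sets Th9 cells against Th17 cells recovered from the spleen 12 days after transfer. It uses the 4 bead arrays labelled Th9 and Th17, 2 of each kind, out of the 6 arrays of the series, whose other 2 hold Th1 cells. Donor cells of each kind had been given to mice that carried tumours, and the labels give C57BL/6 as the strain. They were sorted back from the spleen by CD45.1, a usual mark of donor cells, and CD4, and the labels do not give how each kind was primed. In the labels the other array of a kind is only a repeat, so the p-values measure only how far the arrays of a kind lie apart, and that spread may be technical. All 12093 measured genes entered the test, and a positive log2 fold change means a higher level in Th9.

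T helper cells are CD4 lymphocytes that steer other immune cells with secreted cytokines. Th9 cells are primed with transforming growth factor beta and interleukin 4 and depend on the factors Irf4 and Batf. Th17 cells are primed with transforming growth factor beta and interleukin 6, and signal through Stat3. Both kinds have been studied as donor cells in tumour immunity, where how long they last and how they fuel themselves are recurring questions.

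The defining markers were only in part informative about the labels. Levels per array are given in deposited intensity units, with detection thresholds of 5.84 to 6.95, and each pair of values gives replicate 1 and then replicate 2. Il9 stood at 4.1 and 3 in Th9 and 0.1 and 0.4 in Th17, below the threshold on each array, so it was not tested. Il17a was at 7.8 and 3.4 in Th9 and -0.3 and 8.6 in Th17 and did not pass the test (0.03). Cd4 was detected on every array, at 44 and 66.8 in Th9 and 85.8 and 94.1 in Th17, with a log2 fold change of -0.34 ± 0.12 (adjusted p = 0.0624). The T cell receptor component Cd3e lay at 2613 and 3054 in Th9 and 3826 and 4065 in Th17 (-0.36 ± 0.11, adjusted p = 0.0287), so its arrays of the 2 kinds did not overlap. Its call ended without background correction, with an offset of 16, without Th9 replicate 1, without Th9 replicate 2 and without Th17 replicate 2. The pan-leukocyte gene Ptprc was at 276 and 314 in Th9 and 440.4 and 345 in Th17 (-0.28) and Foxp3, the factor of regulatory T cells, at 368 and 366 in Th9 and 391 and 360.5 in Th17 (0.03), and neither passed. Cd4 and Cd3e, which define CD4 T cells, were thus detected on every array, while the cytokines that name each kind did not separate them. In these bulk samples fewer cells of a type and less RNA per cell cannot be told apart.

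The moderated test of limma, adjusted by Benjamini-Hochberg over all genes, was used for every comparison. In it, 2296 of 12093 genes differed between Th9 and Th17 at an adjusted p below 0.05 (19.0%). Of these, 1214 were higher in Th9 (10.0%) and 1082 lower (8.95%). The median size of a called change was 0.51 on the log2 scale among higher genes and 0.51 among lower genes. A change above 2-fold was found for 175 higher and 147 lower genes, and one above 4-fold for 23 and 22. A gene was detected on no Th17 array in 98 of the higher calls, and on no Th9 array in 33 of the lower ones. The total was 1513 without Th9 replicate 1, 1561 without Th9 replicate 2, 1499 without Th17 replicate 1 and 1424 without Th17 replicate 2. Scaling each array to its median changed these to 699 higher and 924 lower genes.

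**Figure D1:**
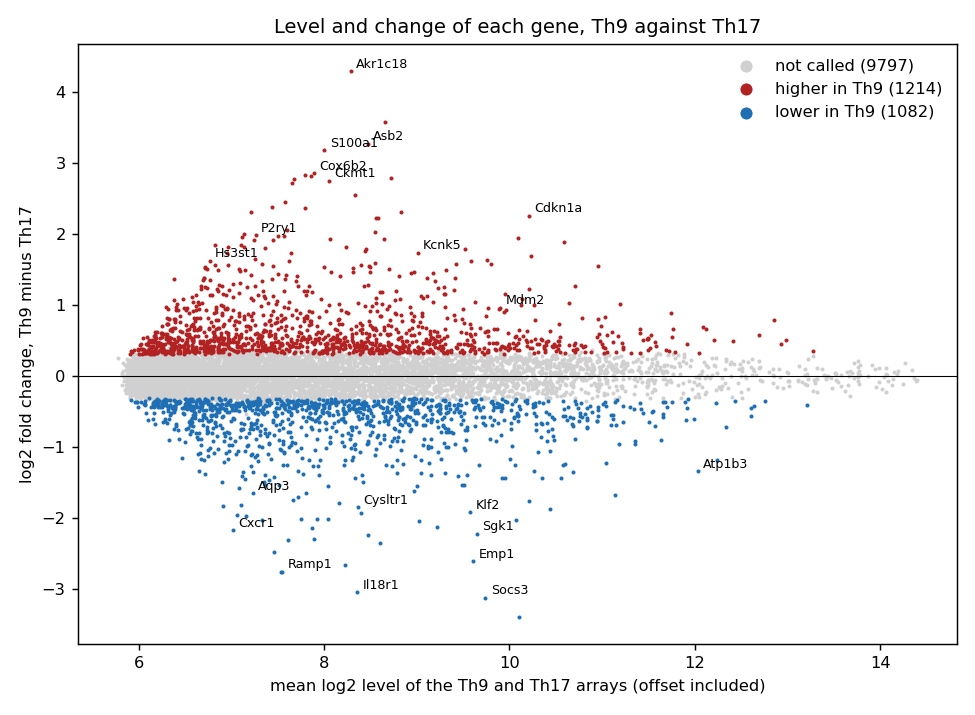
Each point is 1 of the 12093 genes, with the mean log2 level of the Th9 and Th17 arrays across and the log2 fold change upwards, red where higher and blue where lower in Th9 at an adjusted p below 0.05. Akr1c18 stands highest among all genes at 4.30, and called changes of small size occur at every level above the dimmest genes.

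The largest increase in Th9 was that of Akr1c18, an aldo-keto reductase that inactivates progesterone. It was at 1400.1 and 1338 in Th9 and 12.8 and 10.4 in Th17, with -3 and 2.7 in Th1, a log2 fold change of 4.30 ± 0.12 (adjusted p = 3.55e-15). Asb2, a substrate-binding subunit of ubiquitin ligases, stood at 985 and 1195 in Th9 and 84.2 and 42.2 in Th17 (3.28 ± 0.13). Both Th9 arrays were above both Th17 arrays for each of these genes, as their choice required. Here and in later paragraphs, such separation describes genes chosen because they were called and is no further support. S100a1, a calcium-binding protein known from heart muscle, was at 663 and 834 in Th9 and 33 and 23.6 in Th17 (3.18 ± 0.11), and Cox6b2, the testis form of a cytochrome c oxidase subunit, at 523 and 711 in Th9 and 23.9 and 40 in Th17 (2.86 ± 0.12). Cox6b1, the common form of that subunit, did not pass (0.22). Ckmt1, the mitochondrial creatine kinase, was at 635 and 688 in Th9 and 51.1 and 44.9 in Th17 (2.75 ± 0.11). Penk, the precursor of enkephalin opioid peptides, was at 479 and 498 in Th9 and 17.9 and 22.9 in Th17, and Pros1, which encodes the anticoagulant protein S, at 737 and 773 in Th9 and 91.2 and 75.1 in Th17. Penk was also near the Th17 level in Th1 (18.5 and 16.1), whereas Asb2 and S100a1 lay between in Th1, at 179 and 128 and 167 and 142. Tg, the thyroid hormone precursor thyroglobulin, was higher by 2.31. The rest of the 15 named increases were Hba-a1, an alpha globin, the transcription factors Batf3 (2.83) and Irf4 (2.32), Cd74, the cytokine subunit Ebi3 (2.46), the secreted amino acid oxidase Il4i1 (2.38) and the MAP kinase phosphatase Dusp4 (2.37). Only some other probes of Cd74 and Dusp4 passed.

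The largest decreases in Th9, with provisional gene names passed over, began with Socs3. Socs3, the feedback inhibitor of interleukin 6 type cytokine signals, was at 257 and 239 in Th9 and 3075 and 2517 in Th17 (-3.12 ± 0.13, adjusted p = 7.46e-13). Il18r1, a chain of the interleukin 18 receptor, was at 69.1 and 48.1 in Th9 and 1099.8 and 905 in Th17 (-3.05 ± 0.13), with 815 and 765 in Th1. Ramp1, a partner chain of the calcitonin receptor-like receptor, was at 18.2 and 7.4 in Th9 and 520.2 and 433 in Th17 (-2.76 ± 0.12). As their choice required, every Th17 array was above every Th9 array in these 3 genes. Th1 was near Th17 for Il18r1 but near Th9 for Ramp1 (28.8 and 13.9). Ripor2 was at 68 and 59.6 in Th9 and 828 and 740.4 in Th17, and the membrane protein Emp1 at 248 and 309 in Th9 and 2238 and 2037 in Th17. Sgk1, a kinase induced by salt and glucocorticoid, was at 330.1 and 348 in Th9 and 1998 and 1847 in Th17 (-2.22 ± 0.11), and here Th1 was below both kinds (152 and 108). Trib2, a pseudokinase, was at 96.5 and 151 in Th9 and 938 and 908 in Th17 (-2.36 ± 0.12). Others of the 15 were Bambi-ps1, a pseudogene of a transforming growth factor beta decoy receptor (-2.48), Alox5ap of leukotriene synthesis (-2.31), the inhibitory receptor Vsir (-2.29) and the selenium carrier Selenop (-2.13). Actn1, an actin cross-linker (-2.12), Lpar6, a lysophosphatidic acid receptor (-2.05), Rasa3, which switches off Ras and Rap1 (-2.02), and the myosin light chain Myl10 (-2.02) completed them. Signal of Bambi-ps1 cannot be told from Bambi here, since a probe may match both. Another probe of Ripor2 did not pass.

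**Figure D2:**
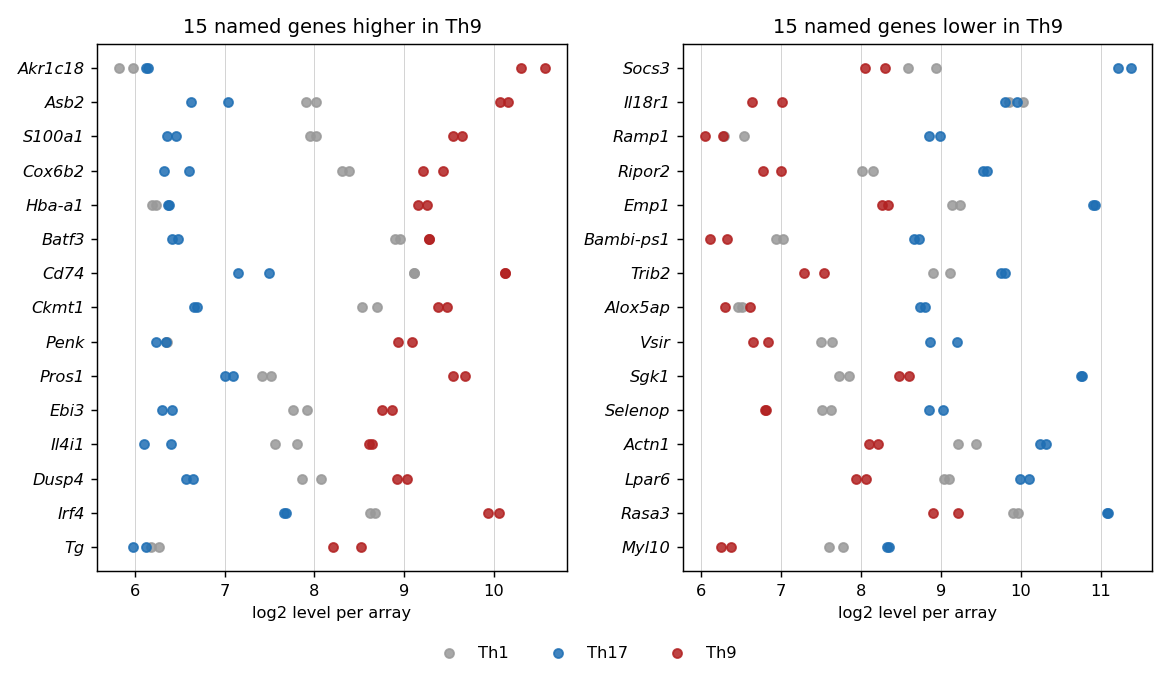
Points are the log2 level on each array (offset included) of the 15 named genes higher in Th9, left, and lower in Th9, right, with Th9 in red, Th17 in blue and Th1 in grey. The Th9 and Th17 arrays do not overlap for any of the 30, which their choice required, while Th1 sits near either kind, between them or, as for Sgk1, outside both.

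Where a kind was not above background on either array, only a lower bound of the fold can be given. It is the normalized mean of the other kind over the level at the detection threshold, both with the offset of 50 included, which lowers the bound. Dmwd, a WD-repeat protein, was at least 3.26-fold higher, at 138 and 205 in Th9 and 0.2 and -0.5 in Th17. Hs3st1, a heparan sulfate sulfotransferase, was at least 2.89-fold higher (125 and 162 in Th9 and 2.1 and 2.1 in Th17). The bounds were 2.7-fold for the Ras regulator Dab2ip, 2.7 for Lurap1, 2.03 for the lipid-sensing nuclear receptor Pparg, 1.96 for the chitinase-like Chil3, 1.89 for the actin-severing Scin and 1.84 for the cell cycle inhibitor Rprm. In the other direction, Cxcr1, a receptor for neutrophil-attracting chemokines, was at least 4.17-fold lower in Th9 (-0.8 and 3.8 in Th9 and 266 and 226 in Th17). Acpp, a phosphatase that also makes adenosine, was at least 3.45-fold lower (3 and 6.2 in Th9 and 208 and 178 in Th17). The protease inhibitor Serpinb1a was at least 2.43-fold lower and the cytokine Tgfb3 at least 2-fold. The remaining lower bounds were 1.51-fold for Fam149b, 1.46 for the Toll-like receptor inhibitor Irak3, 1.39 for the phosphodiesterase Pde2a and 1.33 for the receptor kinase Acvrl1. Each of these 16 genes was detected on both arrays of the higher kind and on no array of the lower, which their choice required. The calls of Chil3, Scin, Serpinb1a, Fam149b and Acvrl1 ended without background correction, and that of Fam149b also with the mean of all kept probes. Other probes of Fam149b did not pass (0.03 and -0.04).

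The Th1 arrays place these differences without a further test. Of the 175 genes over 2-fold higher in Th9, the Th1 mean lay between the other kinds in 69 cases nearer Th9 and in 62 nearer Th17. It was above Th9 in 17 and below Th17 in 27. Of the 147 genes over 2-fold lower, it was between and nearer Th17 in 43, between and nearer Th9 in 76, above Th17 in 9 and below Th9 in 19.

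Of 11 measured genes of MHC class II presentation, 9 were higher in Th9 and 1 lower (90.9% called, against 19.0% of all genes). MHC class II molecules show peptides to CD4 cells and are made mainly by B cells, dendritic cells and macrophages. The list had a median log2 fold change of 0.97 against 0.006 over all genes and was written after values were seen. Cd74, the invariant chain, was at 1029.6 and 1172 in Th9 and 142 and 90.8 in Th17. The class II chains H2-Aa, at 202 and 258 in Th9 and 25.4 and 33.7 in Th17, and H2-Eb1, at 264 and 350 in Th9 and 33.6 and 33.2 in Th17, and Ciita, the master regulator of the class, at 24.8 and 39 in Th9 and -1.8 and -0.1 in Th17, were higher as well. Th1 lay between for Cd74 (454 and 376) and H2-Aa (146 and 144). H2-Ob, a peptide-loading inhibitor, was lower (-0.69), opposite to its partner H2-Oa (1.11). Of the B cell list, 4 of 7 genes on the array were tested, and its summed intensity was 282 and 332 in Th9 and 57.6 and 84.9 in Th17. Cd79b, a chain of the B cell receptor, was higher, at 232 and 289 in Th9 and 42.7 and 53.3 in Th17, and made up most of that sum. The other tested genes of that list, Blk (0.32), Cd22 (0.30) and Fcer2a (0.08), did not pass. Blk was at 9.4 and 14.4 in Th9 and -4 and -2.8 in Th17, and Cd22 at 15.3 and 15.5 in Th9 and -2.2 and 2.9 in Th17. Both were thus above the threshold on both Th9 arrays and on neither Th17 array, whereas Fcer2a was above it on each of them. Ms4a1, Pax5 and Cr2 were not detected in either kind. Of 7 plasma cell genes 6 were tested, 4 of them higher and 1, Ighm, lower (-0.57), with a summed intensity of 5547 and 6842 in Th9 and 4109.5 and 3602 in Th17. Most of that sum was Xbp1, at 3061 and 3744 in Th9 and 2862 and 2424 in Th17. Igkc was at 1178 and 1600.5 in Th9 and 61.9 and 65.9 in Th17, with Th1 nearer Th9 (1089.3 and 952.3). Sdc1 was not detected in Th9 or Th17, and Jchain was above the threshold on 1 of the 4 arrays (0.4 and 1.8 in Th9 and 1.5 and 10.7 in Th17). The call of Ighm ended without background correction. Another probe of Ciita did not pass, and only some of those of Cd74 passed. The part of B lineage RNA in the class II values was not tested.

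Among other cells that a spleen sort could hold, erythroid and platelet genes summed to 667 and 704 in Th9 and 87.3 and 170.1 in Th17, with Hba-a1 at 544 and 583 in Th9 and 27.3 and 24.4 in Th17 and Hbb-b1 at 53.7 and 56.8 in Th9 and 26.5 and 26.7 in Th17 the 2 that passed of 8 tested, and Alas2 not detected. Alpha globin genes have near-identical copies, so the copy read is uncertain. Of the granulocyte list 1 of 3 tested genes, Chil3, rose, and its defining S100a8, S100a9, Ngp and Camp were not detected. Of the macrophage list 1 of 4 tested genes was higher, Adgre1, at 34.1 and 21.3 in Th9 and -0.1 and 0 in Th17 (0.51). It was at 0.9 and -0.2 in Th1. Csf1r, at 13.2 and 12.4 in Th9 and 13.5 and 9.2 in Th17, did not pass (0.03), and Cd14, C1qb and C1qc were not detected. Lyz2, at 157 and 130 in Th9 and 170 and 166 in Th17, did not pass (-0.11). Dendritic cell genes summed to 807 and 844 in Th9 and 299 and 292 in Th17, with Itgax and Xcr1 not detected. The sum was mostly Batf3 in Th9, at 552 and 636, against 29.7 and 31.5 in Th17. In Th17 it was mostly Siglech, which was at 247 and 205 in Th9 and 259.9 and 260.8 in Th17 and did not pass (-0.10). The NK and CD8 list summed to 1180.2 and 1255 in Th9 and 735 and 556 in Th17, with Cd8a and Ncr1 not detected. Cd8b1, the beta chain of CD8, made up most of that sum and was higher, at 1145 and 1258 in Th9 and 718 and 552 in Th17 (0.96 ± 0.11, adjusted p = 2.41e-06). Stromal genes summed to 75.6 and 71.2 in Th9 and 209.5 and 172 in Th17, with Col1a1 and Col3a1 not detected. Most of that sum was Pecam1, at 48.9 and 43 in Th9 and 177.5 and 149.5 in Th17 (-0.98). The other 3 tested genes of that list did not pass. Of 5 melanocyte genes 4 were not detected. The regulatory T cell list summed to 1738 and 2082 in Th9 and 1913 and 1799 in Th17, with 1 of 4 higher. The 5 T cell genes summed to 17248 and 18804 in Th9 and 25618 and 24330.2 in Th17, with Cd3d and Cd3e lower. The calls of Hbb-b1, Chil3, Cd3d and Cd3e ended without background correction, and those of Hbb-b1, Cd3d and Cd3e when 1 array was left out. Other probes of Cd8b1 did not pass, and only some of those of Hbb-b1 passed.

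**Figure D3:**
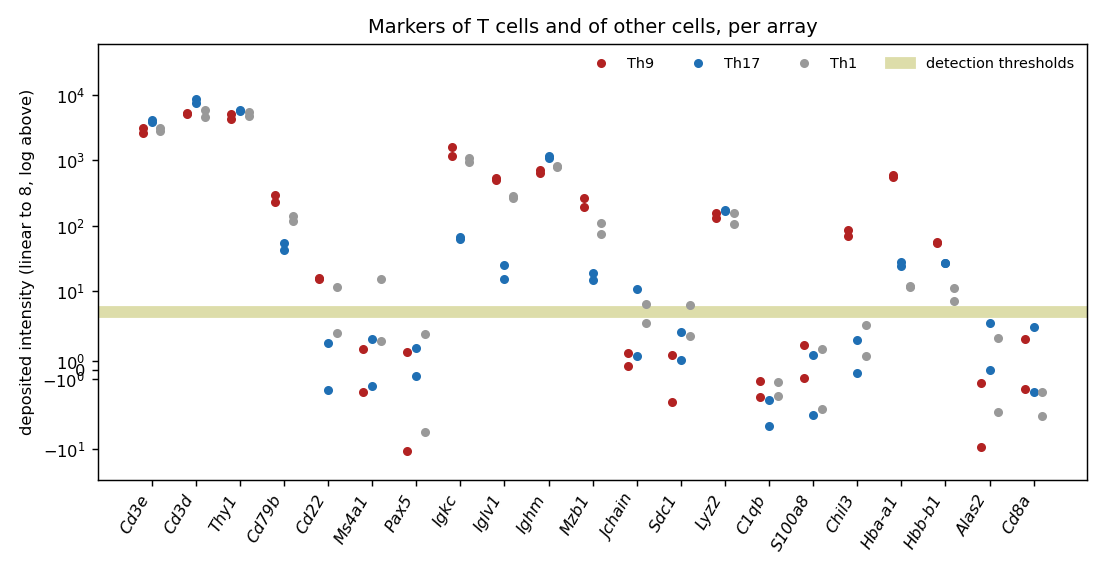
Deposited intensity of markers of T cells and of other cells on each array, on an axis that is linear to 8 and logarithmic above, with the band of detection thresholds. Cd79b, Igkc, Iglv1, Mzb1 and Hba-a1 are above the band and higher in Th9 than in Th17, while Ms4a1, Pax5, Sdc1, S100a8, Alas2 and Cd8a lie at or below it in both.

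Transporters and channels had called genes in both directions, and 1 of their 10 lists had a larger called share than the 19.0% of all genes. Carriers set what a T cell can take up and ion channels set its calcium signals and volume. Slc19a2, the thiamine carrier, was at 534 and 617 in Th9 and 179 and 183 in Th17 (1.47 ± 0.11), and the zinc importer Slc39a4 at 202 and 182 in Th9 and 61.4 and 28.2 in Th17 (1.28 ± 0.13). The potassium channel Kcnk5 was at 886 and 947 in Th9 and 263 and 246 in Th17 (1.74 ± 0.11). In all 3 both Th9 arrays were above both Th17 arrays. On the lower side stood Aqp3, a water and glycerol channel, at 28.2 and 26.3 in Th9 and 261 and 215 in Th17 (-1.65 ± 0.11), Slc2a3, the high-affinity glucose carrier, at 603 and 699 in Th9 and 1468 and 1277 in Th17 (-0.92 ± 0.11), and the peptide carrier Slc15a2 at 25.4 and 50.2 in Th9 and 143 and 162 in Th17 (-1.05 ± 0.12). Atp1b3, a sodium pump beta chain, was at 2397 and 2906 in Th9 and 7575 and 6954 in Th17, and Abca3, a lipid transporter, at 305 and 362 in Th9 and 1021 and 809 in Th17. The endoplasmic calcium sensor Stim1 was lower, at 128 and 207 in Th9 and 419 and 358 in Th17 (-0.93), and so was Saraf, which shuts off the entry that Stim1 opens, at 1796 and 1928 in Th9 and 4107 and 3758 in Th17 (-0.92). Itpr1, a calcium release channel, rose (1.15) while its paralogue Itpr3 fell (-0.76). Slc2a6, a hexose carrier of lysosomes, rose (1.19), as did the drug pump Abcb1b (0.92), and the flippases Atp10d and Atp10a fell (-1.25 and -1.12). Where leaving out 1 of the 4 arrays lowered a list count of 4 or more by over 1.5 times, the lowest count follows in brackets here and in later paragraphs. Without background correction most list counts moved by over 1.5 times (95 of 114). By list, the higher and lower counts were 1 and 0 of 31 amino acid carriers, 1 and 1 of 15 sugar and monocarboxylate carriers, 2 and 4 (2) of 34 ion and acid-base carriers and 4 (1) and 1 of 30 metal carriers. Next came 3 and 5 (1) of 43 mitochondrial carriers, 11 (3) and 3 of 82 nucleoside, nucleotide sugar and vitamin carriers, 4 (1) and 1 of 31 ABC transporters and 3 and 7 of 41 ion pumps and lipid flippases. These were followed by 2 and 5 (2) of 48 potassium and chloride channels and 3 and 9 (5) of 66 calcium entry and other cation channels. The counts in brackets arose without Th9 replicate 1 or 2 or Th17 replicate 1 or 2. With arrays scaled to their median, the higher counts of 4 or more that moved by over 1.5 times came to 3 for nucleoside, nucleotide sugar and vitamin carriers and 2 for ABC transporters. Smaller counts that moved with this scaling are left out here and in later paragraphs. The calls of Slc39a4, Stim1 and Slc2a6 ended without background correction. Saraf and Itpr3 were named after their values were seen.

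Of 101 measured G protein-coupled receptors, chemokine receptors apart, 11 were higher in Th9 and 16 lower (10.9 and 15.8%, against 10.0 and 8.95% of all genes). G protein-coupled receptors carry most lipid, nucleotide and hormone signals into T cells, and cyclic AMP made downstream restrains activation. P2ry1, a receptor for ADP, was at 249.8 and 283 in Th9 and 23.5 and 15 in Th17 (1.99 ± 0.12), P2ry14, a receptor for UDP-glucose, at 235 and 258 in Th9 and 75.2 and 74 in Th17 (1.20 ± 0.11), and F2r, the thrombin receptor, at 2639 and 2576 in Th9 and 1275 and 1025 in Th17 (1.27 ± 0.12). Among the lower ones, Cysltr1, the cysteinyl leukotriene receptor, was at 103 and 147 in Th9 and 676 and 599 in Th17 (-1.85 ± 0.11), and Lpar6 at 186 and 242 in Th9 and 1216 and 1045 in Th17. No Th9 array overlapped a Th17 array in these. The receptor for thromboxane, Tbxa2r (-1.19), that for leukotriene B4, Ltb4r1 (-1.14), the oxysterol receptor Gpr183 (-1.14), Gpr18 (-1.37) and the sphingosine phosphate receptor S1pr1 (-0.93) were lower too, whereas S1pr2 was higher (0.68). Alox5ap, which hands arachidonic acid to the enzyme that starts leukotriene synthesis, fell as stated above. The ectonucleotidase Nt5e, which makes adenosine from AMP, was at 217 and 276 in Th9 and 958 and 890.4 in Th17 (-1.61 ± 0.11). Downstream, Gucy1a1, a subunit of the nitric oxide receptor, was at 24.4 and 32 in Th9 and 189 and 192 in Th17 (-1.40 ± 0.11), and the cyclic AMP phosphodiesterase Pde4b at 415 and 439.6 in Th9 and 1065 and 868 in Th17, while the cyclic AMP-responsive repressor gene Crem rose (1.11). Among membrane ligands and receptor kinases, the ephrin Efna5 was at 277 and 231 in Th9 and 18.4 and 22.2 in Th17 (1.92 ± 0.12), Igf1r at 24.7 and 62.7 in Th9 and 278 and 217 in Th17 (-1.50 ± 0.13) and Sema4a at 395 and 463 in Th9 and 1378 and 1197 in Th17 (-1.40 ± 0.12). Axl, a receptor kinase that Gas6 engages, was higher (1.03). Rbpj, the DNA-binding partner of Notch, rose (at 173 and 215 in Th9 and 26.8 and 27.8 in Th17), whereas the Notch-modifying glycosyltransferase Mfng (at 357 and 384 in Th9 and 831 and 852 in Th17), the Notch coactivator Maml2 (-0.97), the Wnt factors Lef1 (-0.93) and Tle4 (-0.85) and the Wnt feedback gene Axin2 (-0.75) fell. The ERK phosphatases Dusp4 and Dusp6 rose, Dusp6 at 1450 and 1517 in Th9 and 522 and 443 in Th17 (1.63 ± 0.11). Of the 9 lists of this class, 8 had a larger called share than the 19.0% of all genes. By list, the higher and lower counts were 7 and 8 (3) of 54 G protein subunits and regulators, 8 (4) and 12 (7) of 47 cyclic nucleotide enzymes, 6 and 6 of 59 receptor tyrosine kinases, semaphorins and ephrins and 1 and 4 of 28 nuclear receptors. Next came 4 (0) and 7 (3) of 45 pattern recognition receptors and C-type lectins, 1 and 10 of 45 Notch, Wnt and Hippo genes, 9 and 6 (3) of 62 dual-specificity and tyrosine phosphatases and 4 (2) and 2 of 19 purine and adenosine genes. The counts in brackets arose without Th9 replicate 1 or 2 or Th17 replicate 1 or 2. With arrays scaled to their median, the higher counts that moved by over 1.5 times came to 4 for cyclic nucleotide enzymes and 2 for purine and adenosine genes. The calls of S1pr1, S1pr2 and Axl ended without background correction. Other probes of S1pr2, Pde4b, Efna5, Axl, Mfng, Maml2 and Tle4 did not pass. Only some of those of Gucy1a1, Crem, Igf1r, Dusp4 and Dusp6 passed. F2r, Cysltr1, Tbxa2r, Ltb4r1, Gpr183, Gpr18, S1pr1, S1pr2, Pde4b, Axl, Lef1, Tle4 and Axin2 were named after their values were seen.

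Among metabolic enzymes, 4 of 40 of glycolysis and the pentose phosphate path rose in Th9 and 3 fell (10 and 7.5%, against 10.0 and 8.95% of all genes). Larger changes lay in other branches. Of reductases, Akr1c12 was at 2110.5 and 2226 in Th9 and 651 and 723 in Th17 (1.69 ± 0.12), and Hsd17b7, of cholesterol synthesis, at 799 and 935 in Th9 and 337 and 302 in Th17 (1.38 ± 0.11). Hsd11b1, which activates glucocorticoid, went the other way, at 122 and 124 in Th9 and 721 and 623 in Th17 (-1.93 ± 0.11). Members of the Akr1c family are near-identical in places, so which one a probe read is uncertain. For acetyl units, Acss1 was at 129 and 187 in Th9 and 594 and 563 in Th17 (-1.50 ± 0.11) and Acss2 at 95 and 139 in Th9 and 303 and 335 in Th17 (-1.04 ± 0.13), which activate acetate in mitochondria and in the cytosol and nucleus. Pdk1, the kinase that closes pyruvate dehydrogenase, was at 125 and 163 in Th9 and 493 and 402 in Th17 (-1.26 ± 0.11). Both Th17 arrays were above both Th9 arrays for these 3 genes. Of lipid enzymes, Scd1, a fatty acid desaturase, was higher at 167 and 186 in Th9 and 33.6 and 42 in Th17 (1.25 ± 0.12), and Elovl6, a fatty acid elongase, lower at 262 and 340 in Th9 and 665 and 620.5 in Th17 (-0.92 ± 0.11). Dgka, which removes diacylglycerol, was at 849 and 1187 in Th9 and 2998 and 2775 in Th17 (-1.35 ± 0.12). Among lysosomal lipid enzymes, Smpdl3a (-1.82), Neu1 (-1.18) and Lipa (-0.84) fell, and Glb1, the lysosomal galactosidase, rose (1.26). In nucleotide metabolism Nme4 (1.05) and Cad, which starts pyrimidine synthesis (0.86), rose, and Upp1, which breaks down uridine (-1.13), and Samhd1, which breaks down deoxynucleotides (-1.01), fell. The glycine cleavage gene Gldc was at 30.5 and 25.8 in Th9 and 117 and 97.6 in Th17 (-0.84), while the serine synthesis gene Phgdh rose by less (0.46). Of the polyamine, arginine, proline and glutamine list 9 of 36 were higher and 0 lower (25 and 0%, against 10.0 and 8.95% of all genes), with Il4i1 at 333 and 395 in Th9 and 28.3 and 9 in Th17. Genes for enzymes of cell-surface sugars were called in both directions. The heparan sulfate genes Hs3st1 and Sulf2 (1.74) rose and Hs3st3b1, at 17.4 and 24 in Th9 and 196 and 202 in Th17 (-1.58 ± 0.11), fell, as did the sialic acid genes St6galnac3 (-1.43), St3gal6 (-0.99) and Cmah (-1.04). Of the 19 lists of this class, 14 had a larger called share than the 19.0% of all genes. By list, the higher and lower counts were 7 (1) and 1 of 27 serine, folate and methionine enzymes, 9 and 5 (3) of 52 nucleotide synthesis enzymes, 2 and 1 of 16 creatine, adenylate and phosphagen enzymes and 1 and 5 (3) of 31 citrate cycle and pyruvate enzymes. Next came 6 (3) and 2 of 30 cytochrome c oxidase subunits, 9 (2) and 7 (3) of 59 fatty acid oxidation and ketone enzymes, 6 (2) and 2 of 40 sterol and fatty acid synthesis enzymes and 5 (2) and 5 of 43 sphingolipid enzymes. These were followed by 7 (4) and 10 of 87 phospholipases and glycerolipid enzymes, 7 and 7 (4) of 63 inositol lipid kinases and phosphatases, 4 (1) and 2 of 39 eicosanoid and retinoid enzymes and 14 and 5 (2) of 87 aldo-keto reductases, dehydrogenases and cytochromes P450. The same counts were 12 and 5 (2) of 64 glutathione and thioredoxin enzymes, 15 (8) and 21 of 118 glycosyltransferases and sulfotransferases, 4 (1) and 0 of 30 aminoacyl-tRNA synthetases and 4 (2) and 2 of 32 heme and iron genes. Last came 2 and 0 of 7 carbonic anhydrases and other lyases. The counts in brackets arose without Th9 replicate 1 or 2 or Th17 replicate 1 or 2. Of the other lists named here, the lowest counts were 2 higher for polyamine, arginine, proline and glutamine enzymes (without Th9 replicate 2) and 1 higher for glycolysis and pentose phosphate enzymes (without Th9 replicate 2). With arrays scaled to their median, the higher counts that moved by over 1.5 times came to 4 for serine, folate and methionine enzymes, 3 for polyamine, arginine, proline and glutamine enzymes, 1 for glycolysis and pentose phosphate enzymes, 2 for cytochrome c oxidase subunits and 2 for fatty acid oxidation and ketone enzymes. Others came to 2 for sterol and fatty acid synthesis enzymes, 3 for sphingolipid enzymes, 1 for eicosanoid and retinoid enzymes, 9 for aldo-keto reductases, dehydrogenases and cytochromes P450 and 7 for glutathione and thioredoxin enzymes. Others came to 1 for aminoacyl-tRNA synthetases and 1 for heme and iron genes. The lower counts that moved so came to 3 for nucleotide synthesis enzymes. The calls of Acss2 and Phgdh ended without background correction, and that of Phgdh when 1 array was left out. Other probes of Pdk1, Glb1, Gldc, Sulf2 and St6galnac3 did not pass, and only some of those of Nme4 and Upp1 passed. Cad, Phgdh, St6galnac3, St3gal6 and Cmah were named after their values were seen.

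Proteases, ubiquitin ligases and small GTPase regulators each held called genes in both directions. Serpine2, an inhibitor of thrombin and plasminogen activators, was at 745 and 877 in Th9 and 142 and 125 in Th17 (2.23 ± 0.11). Gzmd, a granzyme, was at 198 and 292 in Th9 and 10.8 and 11.9 in Th17 (2.01 ± 0.11), and Casp1, the inflammasome protease, at 1370 and 1660.2 in Th9 and 520.1 and 505 in Th17 (1.58 ± 0.11). These 3 were higher on both Th9 arrays. Granzyme genes D to G are close copies, so the Gzmd probe may read others. Klhl6, a ubiquitin ligase adaptor of lymphocytes, was at 1169 and 1330.2 in Th9 and 4520.2 and 4308 in Th17 (-1.68 ± 0.11), and Usp3, a histone deubiquitinase, at 271 and 312 in Th9 and 1043 and 759 in Th17 (-1.36 ± 0.12). Deubiquitinases had 1 higher and 9 lower of 63 (1.59 and 14.3%, against 10.0 and 8.95% of all genes). Trib3, a pseudokinase induced by stress, fell like Trib2, at 82.5 and 122 in Th9 and 419 and 352 in Th17 (-1.39 ± 0.12). Of the GTPase regulators, Rap1gap was at 132 and 162 in Th9 and 6.9 and 13.1 in Th17 (1.49 ± 0.11) and its paralogue Rap1gap2 at 26.9 and 20.2 in Th9 and 136 and 106 in Th17 (-1.02), so the pair went in opposite directions. The Rac activators Vav2 (1.18) and Tiam1 (1.10) rose. Of the 5 lists of this class, 4 had a larger called share than the 19.0% of all genes. By list, the higher and lower counts were 18 and 13 of 119 proteases and their inhibitors, 20 (13) and 34 (21) of 247 SOCS-box, F-box, Kelch and RING ubiquitin ligases, 13 (5) and 21 (13) of 124 MAP kinase, PIM, SGK and calcium-dependent kinases and 24 (13) and 32 (20) of 196 small GTPase regulators. The counts in brackets arose without Th9 replicate 1 or Th17 replicate 1 or 2. Of the other list named here, the lowest count was 3 lower for deubiquitinases (without Th9 replicate 2 or Th17 replicate 1). With arrays scaled to their median, the higher counts that moved by over 1.5 times came to 5 for MAP kinase, PIM, SGK and calcium-dependent kinases and 14 for small GTPase regulators. Other probes of Rap1gap and Rap1gap2 did not pass, and only some of those of Trib3 passed. Rap1gap2, Vav2 and Tiam1 were named after their values were seen.

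Among structural, secreted and gene control lists, secreted factors had 16 higher and 5 lower of 88 (18.2 and 5.68%, against 10.0 and 8.95% of all genes), with Igfbp7 at 253 and 454 in Th9 and 35.5 and 44.9 in Th17 (1.97 ± 0.14) and the cytokine Lif at 174 and 206 in Th9 and 5.9 and 7.8 in Th17 (1.83 ± 0.11). Igfbp4 was the largest decrease in that list apart from bounds, at 3275 and 3082 in Th9 and 8002 and 7878 in Th17 (-1.18). The interferon-induced membrane genes Ifitm1, Ifitm2 and Ifitm3 rose by 1.46, 1.62 and 1.60, although probes of these near-identical genes may read each other. Tubb6, a tubulin, was at 556 and 619.8 in Th9 and 174 and 175 in Th17 (1.53 ± 0.11). Of transcription factors, Zbtb32 was at 177 and 158 in Th9 and 15.1 and 12.7 in Th17 (1.57 ± 0.12) and Egr2 at 135 and 151 in Th9 and 27.5 and 36.3 in Th17 (1.11 ± 0.11), while Klf13 was at 397 and 383 in Th9 and 1357 and 1266 in Th17 (-1.54 ± 0.12). Ezh2, the enzyme that writes a repressive histone mark, rose (1347 and 1370 in Th9 and 682 and 819 in Th17, 0.93), and Kdm7a, a demethylase of that mark among others, fell (-1.06). Zfp36, which destabilises cytokine messages, was lower, at 248 and 271 in Th9 and 763 and 702 in Th17 (-1.24 ± 0.11). Lysosomal and autophagy genes had 5 higher and 21 lower of 149 (3.36 and 14.1%, against 10.0 and 8.95% of all genes), among them the protease Ctsc at 385 and 392 in Th9 and 858 and 764 in Th17 (-0.89). Ribosome assembly genes had 11 higher and 0 lower of 71 (15.5 and 0%, against 10.0 and 8.95% of all genes), each by a small amount, with Pno1 the largest (0.55). Without background correction 0 of them passed. Of the 10 lists of this class, 7 had a larger called share than the 19.0% of all genes. By list, the higher and lower counts were 11 and 20 (10) of 134 myosins, tubulins, kinesins and actin genes, 13 and 14 (9) of 56 annexins, S100 proteins, galectins and tetraspanins, 17 (11) and 18 of 174 Kruppel-like, bHLH, forkhead, homeobox and SOX factors and 13 (8) and 23 (13) of 144 chromatin enzymes. Next came 8 (5) and 2 of 72 mitochondrial ribosome subunits and 8 (3) and 6 of 30 immediate early and heat shock genes. The counts in brackets arose without Th9 replicate 1 or 2 or Th17 replicate 1 or 2. Of the other lists named here, the lowest counts were 4 higher for ribosome assembly genes (without Th9 replicate 2 or Th17 replicate 2), 3 higher for autophagy, lysosome and vesicle fusion genes (without Th9 replicate 2 or Th17 replicate 2) and 8 lower for autophagy, lysosome and vesicle fusion genes (without Th17 replicate 2). With arrays scaled to their median, the higher counts that moved by over 1.5 times came to 7 for chromatin enzymes, 4 for mitochondrial ribosome subunits, 2 for ribosome assembly genes and 5 for immediate early and heat shock genes. The calls of Egr2, Ezh2 and Pno1 ended without background correction, and only some other probes of Ifitm1 and Ezh2 passed. Igfbp4, Ifitm1 and Ifitm3 were named after their values were seen.

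**Figure D4:**
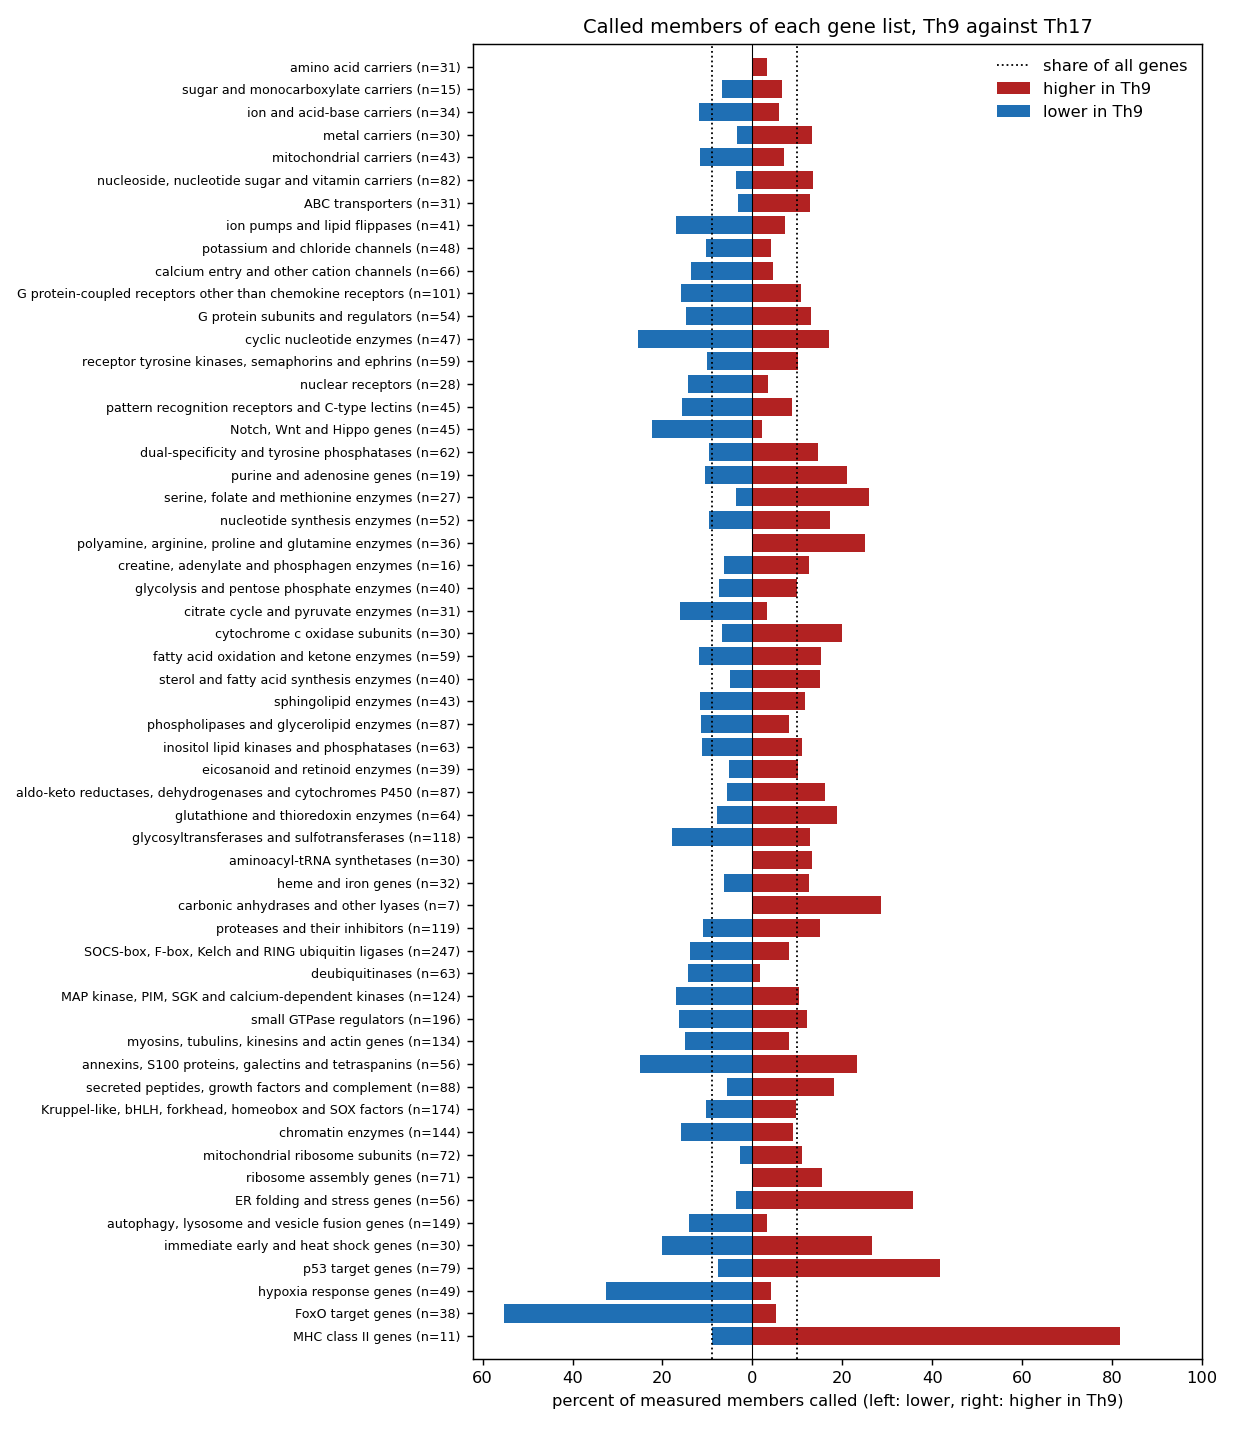
Bars give the percent of the measured members of each list (n in brackets) called higher in Th9, red to the right, or lower, blue to the left, and dotted lines mark the shares over all genes, 10.0 and 8.95%. Endoplasmic reticulum, p53 and MHC class II genes reach farthest to the right of the lines, and FoxO, hypoxia and cyclic nucleotide genes farthest to the left, the p53, hypoxia, FoxO and MHC class II lists having been written after values were seen.

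Of 56 measured genes of protein folding and stress in the endoplasmic reticulum, 20 were higher in Th9 and 2 lower (39.3% called, against 19.0% of all genes). Secreted and membrane proteins fold there, and when folding demand rises the factors ATF6 and XBP1 raise chaperone genes through a promoter element, the ER stress response element. Its letters are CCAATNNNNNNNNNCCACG. The median log2 fold change of the list was 0.18, against 0.006 over all genes. The element was searched on both strands, in the 300 bases around each gene's start, mostly upstream, in promoter windows of GRCm38.p6 from RefSeq. At least 1 window of 14 of the 9579 tested genes with a promoter (0.146%) held it. So did windows of 5 of the 16 higher members with a promoter, of 3 of 30 that did not pass and of 0 of 2 lower. A match is a description of these letters only. The promoters of Hspa5 (chr2:34771840-34772139, plus strand), Hsp90b1 (chr10:86705395-86705694, minus strand) and Creld2 (chr15:88819396-88819695, plus strand) are shown because these members rose and hold the element, and that of Pdia6 (chr12:17266339-17266638, plus strand) because it holds the element and did not pass. Each runs 5′ to 3′ on the gene's strand, with the element in capitals.
Hspa5: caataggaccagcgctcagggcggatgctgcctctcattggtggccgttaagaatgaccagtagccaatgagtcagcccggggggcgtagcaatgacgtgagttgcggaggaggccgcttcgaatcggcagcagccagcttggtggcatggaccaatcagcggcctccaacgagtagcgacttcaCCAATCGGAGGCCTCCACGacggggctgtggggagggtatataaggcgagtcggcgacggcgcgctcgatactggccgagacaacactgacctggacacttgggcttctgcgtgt
Hsp90b1: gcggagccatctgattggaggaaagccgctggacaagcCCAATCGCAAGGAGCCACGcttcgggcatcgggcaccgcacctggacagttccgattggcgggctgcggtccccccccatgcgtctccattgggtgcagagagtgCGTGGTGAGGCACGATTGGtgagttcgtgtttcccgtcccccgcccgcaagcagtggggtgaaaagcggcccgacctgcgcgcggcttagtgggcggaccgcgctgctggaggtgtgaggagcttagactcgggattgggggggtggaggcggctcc
Creld2: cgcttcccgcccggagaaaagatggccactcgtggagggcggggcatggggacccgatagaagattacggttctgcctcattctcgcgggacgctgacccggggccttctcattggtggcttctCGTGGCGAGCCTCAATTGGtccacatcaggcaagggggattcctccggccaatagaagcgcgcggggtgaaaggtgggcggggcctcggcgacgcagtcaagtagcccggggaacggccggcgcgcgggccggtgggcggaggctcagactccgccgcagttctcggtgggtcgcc
Pdia6: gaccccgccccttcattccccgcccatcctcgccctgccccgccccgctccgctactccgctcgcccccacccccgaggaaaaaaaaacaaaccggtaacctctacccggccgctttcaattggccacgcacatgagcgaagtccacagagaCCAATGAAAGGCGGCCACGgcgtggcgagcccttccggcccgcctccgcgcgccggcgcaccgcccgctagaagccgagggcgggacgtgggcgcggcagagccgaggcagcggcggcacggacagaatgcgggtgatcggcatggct

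Among these chaperones Hspa5, the chaperone known as BiP, was at 115 and 163 in Th9 and 68.9 and 57.9 in Th17 (0.69 ± 0.12, adjusted p = 0.000263). Hsp90b1, the chaperone GRP94, was at 2248 and 2628 in Th9 and 2181 and 1839 in Th17 (0.40 ± 0.11), and Creld2, a disulfide isomerase, at 260 and 343 in Th9 and 196 and 196 in Th17 (0.54 ± 0.11). Pdia6, another disulfide isomerase, was at 21.5 and 55.6 in Th9 and 38.7 and 14.1 in Th17 (0.17). Values of each pair of Th9 arrays were above those of the Th17 pair for the 3 that passed. The largest increases of the list were in Mzb1, a chaperone of antibody-secreting cells, at 189.7 and 259.9 in Th9 and 18.6 and 14.5 in Th17 (1.83 ± 0.11), and Spcs3, a signal peptidase subunit, at 767 and 1042 in Th9 and 406 and 344 in Th17 (1.24 ± 0.12). Calr (0.37), Syvn1 (0.43), Xbp1 (0.53) and Atf4 (0.55) rose, while the stress-induced Trib3 and Ddit4 (-0.40) fell. The higher count was 11 without Th9 replicate 2 or Th17 replicate 2, 9 with arrays scaled to their median and 3 without background correction. Mzb1 and Xbp1 also belong to the plasma cell markers, whose summed level is given above, and their part in this list was not tested. The calls of Hspa5, Hsp90b1, Creld2, Calr, Syvn1, Xbp1, Atf4 and Ddit4 ended without background correction, those of Hsp90b1, Calr, Syvn1 and Ddit4 when 1 array was left out, and another probe of Trib3 did not pass. Hspa5, Hsp90b1, Creld2, Pdia6, Calr, Syvn1, Atf4 and Ddit4 were named after their values were seen.

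Of 79 measured genes that p53 is known to induce, 33 were higher in Th9 and 6 lower (49.4% called, against 19.0% of all genes). The tumour suppressor p53 stops the cell cycle and raises repair genes after DNA damage or other stress. The list was written after values were seen, and its median log2 fold change was 0.19. Cdkn1a, the cyclin-dependent kinase inhibitor p21, was at 2557 and 2649 in Th9 and 573 and 506 in Th17 (2.26 ± 0.11, adjusted p = 1.07e-11). Phlda3, an inhibitor of Akt, was at 527 and 556 in Th9 and 118 and 112 in Th17 (1.82 ± 0.12), Zmat3, an RNA-binding target, at 675 and 670.3 in Th9 and 222 and 207 in Th17 (1.51 ± 0.12), and Ccng1, cyclin G1, at 2205 and 2419.6 in Th9 and 1155 and 1229.5 in Th17 (1.03 ± 0.11). The 2 Th9 arrays were above the 2 Th17 arrays in each. Mdm2, the ligase that degrades p53, was at 1329 and 1302 in Th9 and 710.2 and 696 in Th17 (0.96 ± 0.11), and the phosphatase Ppm1d, another brake on p53, at 436 and 568 in Th9 and 223 and 271 in Th17 (0.92 ± 0.12). In Th1, Cdkn1a was at 1175 and 1155, Mdm2 at 831 and 683 and Phlda3 at 229 and 239. The epoxide hydrolase Ephx1 was at 292 and 369.5 in Th9 and 64.7 and 48.4 in Th17 (1.74 ± 0.11), and Gtse1 (1.22), Ercc5 (1.13) and Ddit4l (1.38) rose too. Lower members were Sesn1, a stress-induced inhibitor of growth signals, at 303 and 327 in Th9 and 1041 and 908 in Th17 (-1.39 ± 0.11), Btg2 (-0.62), Ddb2 (-0.57) and 3 others. The death genes Bbc3 (0.17) and Fas (-0.04) did not pass. Without 1 array the higher count was at least 29, and the lower count was 3 without Th9 replicate 2 or Th17 replicate 1. Without background correction the counts were 18 and 1. The calls of Ppm1d, Btg2 and Ddb2 ended without background correction. Other probes of Ppm1d and Ddb2 did not pass, and only some of those of Gtse1 passed. Zmat3, Ccng1, Mdm2, Ppm1d, Gtse1, Ercc5, Ddit4l, Btg2, Ddb2, Bbc3 and Fas were named after their values were seen.

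Of 49 measured genes known to be raised by low oxygen, 2 were higher in Th9 and 16 lower (36.7% called, against 19.0% of all genes). Hypoxia-inducible factor binds promoters that hold the core ACGTG and raises glucose uptake, glycolysis and blood vessel signals. The list was written after values were seen, and its median log2 fold change was -0.13. The core, searched as ACGTG or CACGT, which overlap where CACGTG is read, in the same windows, was in those of 28.5% of tested genes. It was in 9 of the 11 lower members with a promoter and in 20 of the 30 that did not pass. Ankrd37 (chr8:45999801-46000100, minus strand) and P4ha1 (chr10:59323046-59323345, plus strand) fell and hold the core, and Ldha (chr7:46845554-46845853, plus strand) holds it several times and did not pass, so they are shown with the core in capitals, 5′ to 3′ on the gene's strand.
Ankrd37: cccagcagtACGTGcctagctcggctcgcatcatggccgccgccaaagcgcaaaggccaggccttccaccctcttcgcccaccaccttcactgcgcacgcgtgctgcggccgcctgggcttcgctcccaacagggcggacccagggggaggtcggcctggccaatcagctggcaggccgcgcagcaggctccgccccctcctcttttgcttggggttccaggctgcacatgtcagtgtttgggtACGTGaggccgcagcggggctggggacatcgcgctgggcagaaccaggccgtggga
P4ha1: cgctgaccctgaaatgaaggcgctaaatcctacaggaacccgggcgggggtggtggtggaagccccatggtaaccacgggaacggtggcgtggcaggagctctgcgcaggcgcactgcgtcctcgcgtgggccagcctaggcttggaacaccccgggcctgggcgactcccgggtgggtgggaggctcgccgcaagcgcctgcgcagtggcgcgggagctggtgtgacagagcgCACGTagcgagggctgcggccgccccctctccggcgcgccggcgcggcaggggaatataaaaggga
Ldha: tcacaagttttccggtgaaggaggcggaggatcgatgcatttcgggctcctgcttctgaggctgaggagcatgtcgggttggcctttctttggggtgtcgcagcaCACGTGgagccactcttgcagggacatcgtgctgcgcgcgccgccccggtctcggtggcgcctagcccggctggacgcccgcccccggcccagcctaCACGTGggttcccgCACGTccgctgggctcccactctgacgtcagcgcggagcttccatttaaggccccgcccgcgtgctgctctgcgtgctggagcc

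Ankrd37 was at 289.6 and 275 in Th9 and 589 and 627 in Th17 (-0.91 ± 0.12, adjusted p = 8.00e-06) and P4ha1, a collagen prolyl hydroxylase, at 66 and 82.3 in Th9 and 194 and 161 in Th17 (-0.75 ± 0.11). Ndrg1, a stress-responsive growth regulator, was at 102 and 103 in Th9 and 432 and 451 in Th17 (-1.55 ± 0.11), and Egln3, a prolyl hydroxylase that marks the factor for decay, at 386 and 467 in Th9 and 902 and 919 in Th17 (-0.94 ± 0.11). Both Th17 arrays were above both Th9 arrays in these 4 genes. Pdk1 and Slc2a3, described above, Aldoc (-0.94), Stc1 (-1.06) and the vessel growth factor Vegfa (-0.63) were lower too. Hif1a itself (0.11) and the glycolytic genes Ldha, at 6109 and 6905 in Th9 and 7577 and 7495 in Th17 (-0.07), and Pgk1 (-0.06) did not pass. Without 1 array the lower count was at least 13, and without background correction it was 6. The calls of Ankrd37, Stc1 and Vegfa ended without background correction, and other probes of Egln3, Pdk1 and Vegfa did not pass. Ankrd37, P4ha1, Egln3, Vegfa, Hif1a, Ldha and Pgk1 were named after their values were seen.

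Of 38 measured targets of the FoxO factors, 2 were higher in Th9 and 21 lower (60.5% called, against 19.0% of all genes). FoxO1 is active in resting T cells, where it keeps up genes of survival, recirculation and restraint of growth signals, and Akt signalling moves it out of the nucleus. The median log2 fold change was -0.52. This list too was written after values were seen, and several members were already known to be lower. Klf2, a factor of quiescence and tissue egress, was at 295 and 432 in Th9 and 1663 and 1575 in Th17, with 618 and 406 in Th1. Pik3ip1, an inhibitor of phosphoinositide 3-kinase, was at 50.9 and 53 in Th9 and 273 and 298 in Th17 (-1.53 ± 0.11), and Tsc22d3, the glucocorticoid-induced leucine zipper, at 379 and 417 in Th9 and 1369 and 1285 in Th17 (-1.53 ± 0.11). For these genes each Th9 array lay below each Th17 array. Ypel3 was at 1177 and 1569 in Th9 and 3682 and 3274 in Th17 (-1.22 ± 0.12), Klhl24 at 139.7 and 186 in Th9 and 497 and 438 in Th17 (-1.19), and the death gene Bcl2l11 at 129 and 161 in Th9 and 349 and 355 in Th17 (-0.95 ± 0.12). Bcl6 (-1.65), Igf1r, Il7r (-1.43), S1pr1 and Sesn1 were the other larger decreases. The 2 higher members were Irs2 (0.56) and Tnfsf10 (0.42). Without 1 array the lower count was at least 18, and without background correction it was 10. Sesn1 is also a p53 target and stands in both lists. The calls of Bcl2l11, S1pr1 and Tnfsf10 ended without background correction, and that of Tnfsf10 when 1 array was left out. Other probes of Ypel3, Klhl24 and Tnfsf10 did not pass, and only some of those of Bcl2l11, Igf1r and Il7r passed. Tsc22d3, Ypel3, Klhl24, Bcl2l11, Il7r, S1pr1, Irs2 and Tnfsf10 were named after their values were seen.

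**Figure D5:**
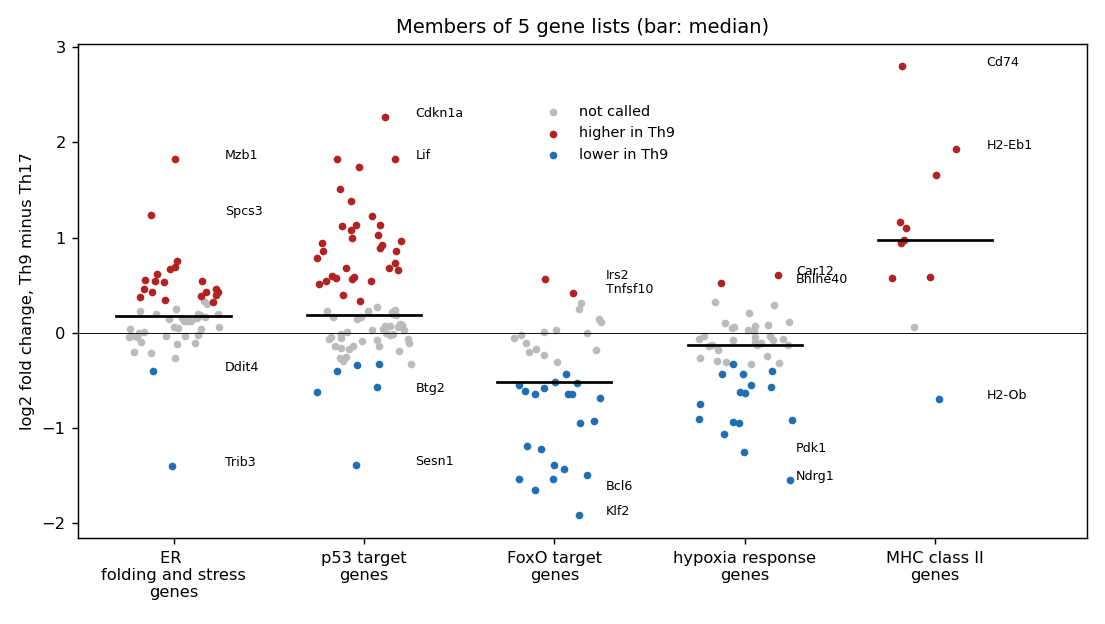
Each point is the log2 fold change of a measured member of 5 lists, coloured where called, with a bar at the median and the outermost called members named. The medians are 0.18 for endoplasmic reticulum genes, 0.19 for p53 targets, -0.52 for FoxO targets, -0.13 for hypoxia genes and 0.97 for MHC class II genes.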

How the data were processed

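Total RNA of the sorted cells was amplified to biotin-labelled cRNA and hybridised to Illumina mouse bead arrays, per the labels' protocols. The values are the deposited intensities of the authors' value table, on a linear scale that centres near 0. The sources used here do not give how the authors subtracted background and scaled them. A further table with 12 columns of per-sample values was not used, because its column names match no sample label.

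Noise was estimated on each array as the root mean square of its negative values, and a probe above 1.64 times this noise was taken as detected. That gave 18581 to 20466 of 45281 probes per array, and the 22460 detected on at least 2 of the 6 arrays were kept. Of these, 3846 had no gene in the annotation tables, and 414 of those passed when all kept probes were tested. The number of arrays limits the precision.

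Intensities were corrected with normexp (offset 50), quantile normalized and log2 transformed, so fold changes of dim genes are understated. Each gene was read by its probe of highest average level. For the named genes called, 109 other kept probes passed in the same direction, 77 did not pass and 0 passed in the opposite one. All 6 arrays were fitted in 1 linear model with limma 3.58.1 in R 4.3.3 (3 residual and 16.2 prior degrees of freedom), with Benjamini-Hochberg adjustment over all genes at 0.05. Standard errors (±) of called genes lay between 0.105 and 0.211 on the log2 scale, with n = 2 arrays per kind. In simulated data drawn around the levels of this comparison, planted changes of log2 0.5 were recovered in 72.0% and those of 1 or more in 100% of cases. The simulation ran from normalized values on 12093 genes, 13 of 11893 unchanged ones being called.

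Named were the 15 largest called changes each way whose arrays did not overlap and that were detected in both kinds, the 8 largest bounds each way, up to 3 called members of each of 53 lists and 8 defining genes, with provisional names and immunoglobulin segments passed over. The lists, in 5 classes (transporters, receptors, metabolic enzymes, proteases and kinases, cell body and gene control), and the other choices were made with earlier results of these data known, and 4 further lists were composed later. Some results are not reported here. Alternatives varied the background step, the offset, how arrays were scaled, the filter on dim probes, how probes were combined, the variance model and the arrays in the fit, added a replicate block, or left out each array in turn.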

Additional observations from a re-analysis of the deposited data

How the results depend on the processing

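Without background correction the total fell to 674 genes, 373 higher and 301 lower, and with arrays scaled to their median 699 were higher and 924 lower, the median of all genes moving from 0.006 to -0.019. With an offset of 16 the total was 1573. Leaving out 1 array of the 6 gave totals of 1424 to 2608, with 735 to 1390 higher and 689 to 1218 lower, the highest values arising without a Th1 array. The filter, probe summary, variance model and fit on 4 arrays gave 2075 to 2608. With the replicate block it was 2249. The correlations of same-numbered deviations (-0.023, -0.021, 0.014) do not show that the numbers pair the arrays, and the block ended the call of 0 of 262 named genes called. Of those, 74 no longer passed without background correction, 15 with an offset of 16, 13 with median scaling and 5 with the mean of all kept probes. In each fit that left out an array 238 passed, and 188 passed in every alternative that gave them a value, 11 of the named genes having none where detection on at least 4 arrays was asked. None reversed its direction where called. Of 114 list counts, 95 moved by over 1.5 times without background correction, 42 with an offset of 16, 32 with median scaling and 35 to 48 without 1 of the Th9 or Th17 arrays. The cause was not tested. Between 41 and 45.2% of probes were above background on an array, which limits what can be said of dim genes.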

Other observations

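Further genes with a fitted change above 2-fold, chosen after their values were seen, belong to cytokine signalling, T cell survival and transcription. The receptor chain Tgfbr2, through which transforming growth factor beta acts, was at 492 and 663 in Th9 and 1802 and 1796 in Th17 (-1.44 ± 0.12, adjusted p = 1.20e-08). Gfi1, a transcriptional repressor of lymphocytes, was at 478 and 511 in Th9 and 88.7 and 86.1 in Th17 (1.93 ± 0.11, adjusted p = 5.13e-11). Th17 was thus above Th9 for Tgfbr2 and Th9 above Th17 for Gfi1, with no overlap of arrays. Another probe of Tgfbr2 did not pass.

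Members of the tumour necrosis factor family were found on both sides. The costimulatory receptor Tnfrsf9 was at 91.2 and 135 in Th9 and 6.7 and 11.7 in Th17 (1.25 ± 0.11), the cytokine lymphotoxin alpha, Lta, at 1008 and 1160.3 in Th9 and 445 and 370.4 in Th17 (1.39 ± 0.11), and Tnfsf13b, the B cell survival factor BAFF, at 185 and 178 in Th9 and 22.1 and 23.3 in Th17 (1.51 ± 0.11). Tnfrsf25, a receptor of the same family, was the other way, at 213 and 247 in Th9 and 712 and 635 in Th17 (-1.27 ± 0.11). The anti-death genes Bcl2a1b (1.55) and Bcl2a1d (1.56) were higher in Th9, although these close copies cannot be told apart by signal alone. Cd55, which shields cells from complement, was at 294 and 291 in Th9 and 80.7 and 80.3 in Th17 (1.34 ± 0.12), and Mgmt, which repairs alkylated DNA, at 790.3 and 823 in Th9 and 280.4 and 266 in Th17 (1.46 ± 0.13). Only some other probes of Tnfrsf9 and Tnfsf13b passed.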
